A study of Homo sapiens with 6 samples.

Results

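The genes described here encode 10 chaperones and proteases that keep the mitochondrial proteome in order: HSPD1, HSPE1, HSPA9, LONP1, CLPP, YME1L1, OMA1, IMMP2L, AFG3L2 and SPG7. They were chosen by name from the 60643 rows of a gene expression table, each symbol had a single row, and all 10 passed the filter on low values. The table holds FPKM values (sequenced fragments per length of transcript and size of library, so that levels can be set side by side between genes) from 6 RNA sequencing libraries of HCT116, an established human colorectal cancer line. All cells carried a doxycycline-inducible short hairpin RNA against CAPG, an actin filament capping protein. In 3 libraries, called +Dox here and given the genotype CAPG Knockdown in the labels, the cells had received doxycycline for 3 days at 100 ng/µl, as written in the labels. The other 3 libraries, called -Dox and given the genotype WT, came from untreated cells with the same hairpin. The labels do not say whether the line was a single clone or whether replicates were separate cultures. A p-value here is thus set against library-to-library spread that may be purely technical. Cells given doxycycline without this hairpin were not analysed here, and the drug and the hairpin cannot be told apart.

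Most mitochondrial proteins are made in the cytosol, enter unfolded, and are folded in the matrix by mortalin (HSPA9) and by the chaperonin barrel of HSPD1 with its lid HSPE1. Proteases on both faces of the inner membrane and in the matrix cut signal peptides, remove damaged subunits and process regulators of mitochondrial shape and stress signalling. Doxycycline, besides switching on inducible promoters, binds bacterial-type ribosomes and can slow translation inside mitochondria, which unbalances respiratory complexes built from nuclear and mitochondrial subunits. Misfolded protein in the matrix is known to raise chaperone and protease mRNAs through the mitochondrial unfolded protein response, which in mammalian cells overlaps with the ATF4 and CHOP stress pathway.

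The promoter sequences shown next are those of the chaperone and protease genes in which the letters of a known stress or growth element were found, and of IMMP2L, which carried the largest change among the 10. They come from RefSeq (build GRCh38.p14), in which 8 of the 10 genes matched a window of 250 bases before to 50 bases after a transcription start; CLPP and YME1L1 had no entry. HSPD1 and HSPE1 lie head to head on chromosome 2, and 104 bases separate their starts at 197500274 (minus strand) and 197500379 (plus strand), so that both mRNAs leave the same stretch of DNA in opposite directions. Capitals mark the E-box CACGTG, the binding sequence of MYC and related factors, in the HSPD1/HSPE1, HSPA9 and LONP1 stretches, the GC box GGGCGG in IMMP2L, and a run of 4 alternating TTC and GAA units, the binding pattern of heat shock factor, in HSPD1. The HSPD1/HSPE1 stretch is chr2:197500275-197500378 on the plus strand. The others are on the minus strand, at chr2:197500061-197500090 (heat shock element), chr5:138575402-138575461 (HSPA9), chr19:5720147-5720206 (LONP1) and chr7:111562493-111562642 (IMMP2L).
HSPD1 and HSPE1, between the starts: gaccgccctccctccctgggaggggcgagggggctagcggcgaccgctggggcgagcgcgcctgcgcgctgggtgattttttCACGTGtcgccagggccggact
HSPD1, heat shock element: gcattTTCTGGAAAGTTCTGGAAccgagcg
HSPA9, before the start: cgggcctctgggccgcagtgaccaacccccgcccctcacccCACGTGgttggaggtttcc
LONP1, before the start: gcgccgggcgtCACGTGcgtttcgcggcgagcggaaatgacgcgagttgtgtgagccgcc
IMMP2L, before the start: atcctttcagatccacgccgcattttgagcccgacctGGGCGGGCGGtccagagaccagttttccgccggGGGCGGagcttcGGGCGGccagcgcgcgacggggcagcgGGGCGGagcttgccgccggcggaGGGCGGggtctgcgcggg

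CACGTG, which is its own reverse complement, was present in the windows of 4 of the 8 matched genes (HSPD1, HSPE1, HSPA9 and LONP1). It was in 7.26% of all 35116 windows. That is a share of windows and not of genes, and HSPD1, LONP1 and SPG7 have more than a single window each. The HSPD1 and HSPE1 matches are the same bases, read from both sides. LONP1 holds a match at -49 from its start, shown above, and another at -212. The palindromic NRF1 element was found in LONP1 alone of the 8 genes and in 1.24% of all windows. The run of 4 alternating units stands at -245 from a downstream HSPD1 start, inside intron 1 of the GENCODE transcript HSPD1-201, and 0.0342% of all windows (12 of 35116) hold such a run. A single pair of these units, TTCNNGAA, was present in HSPD1 and HSPA9, in HSPA9 at -4 from the start, and in 7.74% of all windows. The composite element of C/EBP and ATF factors, searched as TGATGNAA on both strands, matched in 0 of the 8 genes and in 3.62% of all windows. GGGCGG, searched on both strands with overlapping matches counted, matched 7 times in the IMMP2L window. The median over all windows was 0, and 45% held at least 1. GGGCGG was counted for IMMP2L alone of the 8 genes, which was shown for its change, so the 8 cannot be compared by it. Its reverse complement CCGCCC also stands, unmarked, in the HSPD1/HSPE1 and HSPA9 stretches above. These are matches of letters and not measured binding.

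CAPG, the target of the hairpin, was at 8.18, 8.03 and 9.97 FPKM with doxycycline and at 61.1, 56.9 and 53.7 FPKM without it, so 15.3% of its level was left (limma adjusted p = 7.24e-06). Library depth was estimated at 17700000 to 18600000 fragments in +Dox and 13500000 to 17800000 in -Dox, so that 3 fragments on a 1 kb transcript would amount to between 0.162 and 0.222 FPKM (counting error only). The FPKM values of +Dox replicate 3 summed to 586911, against 521832 to 536037 in the other 5 libraries. Of 12 intestinal epithelial markers 6 averaged at least 1 FPKM (EPCAM, KRT8, KRT18, KRT19, CDH1 and CDX2), while VIL1, KRT20, LGALS4, CEACAM5, CEACAM6 and CDX1 did not. Markers of leukocytes (8 genes) and endothelium (6 genes) stayed at or under 1.05 FPKM in every library, and of 8 fibroblast markers only COL1A1 averaged at least 1 FPKM. The epithelial markers summed to 1868 to 2202 FPKM with doxycycline and 1659 to 1861 FPKM without it, and their part in the results was not tested. In such bulk libraries, fewer cells of a kind and less RNA per cell cannot be told apart. Over all 14475 tested genes, limma called 534 higher and 691 lower with doxycycline at an adjusted p under 0.05, and the median log2 change was -0.0026.

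Of the 10 mitochondrial chaperone and protease genes, 0 were called higher and 1, IMMP2L, was called lower, a share of 10% against 8.46% of all tested genes (3.69% higher and 4.77% lower). In 5 of the 10 the values of the 2 groups did not overlap, HSPD1 and CLPP being higher and SPG7, OMA1 and IMMP2L lower with doxycycline, against 34.5% of all tested genes (17% higher and 17.5% lower). The same 5 were under an unadjusted limma p of 0.05, against 27.9% of all tested genes. The median log2 change of the 10 was 0.02, with 5 positive and 5 negative values, and without IMMP2L all changes lay between -0.40 and 0.36. Levels in -Dox cells spanned a wide range, in the order HSPD1, HSPE1, HSPA9, SPG7, YME1L1, LONP1, CLPP, AFG3L2, IMMP2L and OMA1 by mean FPKM. HSPE1 was more abundant than 99.0% of tested genes by its mean over all libraries, HSPA9 than 96.8%, IMMP2L than 53.3% and OMA1 than 49.5%. In that order, the -Dox values overlapped between AFG3L2 and IMMP2L and between IMMP2L and OMA1, and between no other neighbours. In +Dox cells YME1L1 stood above SPG7, CLPP above LONP1 and OMA1 above IMMP2L by mean FPKM, with overlapping values in all 3 pairs, and HSPD1 and HSPE1 overlapped too.

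**Figure D1:**
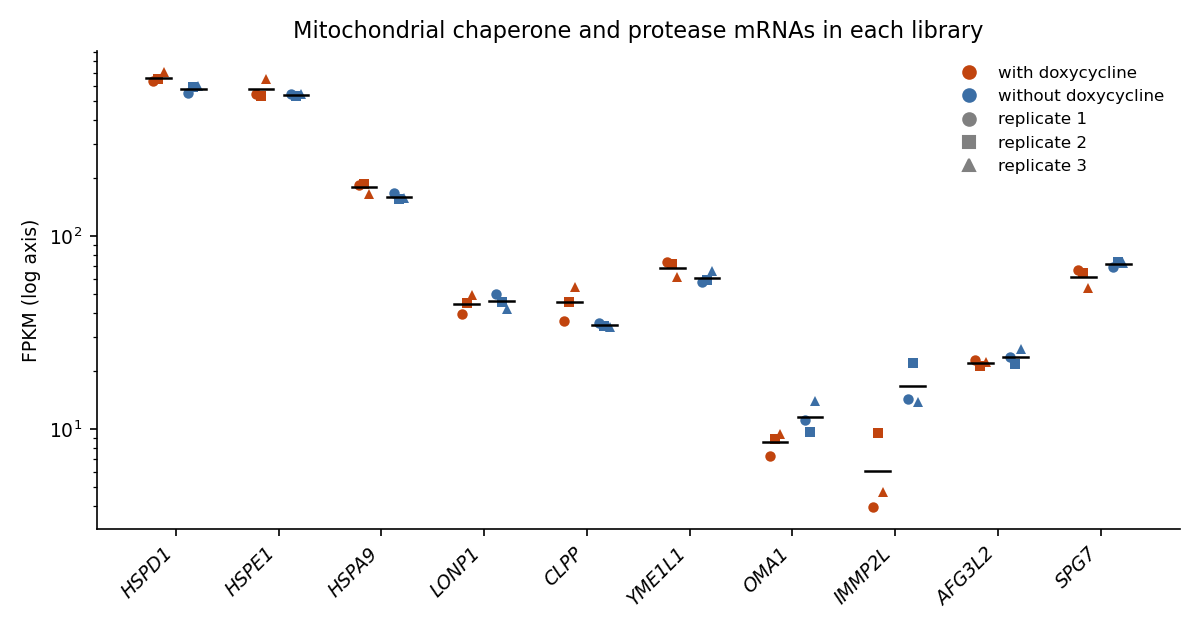
FPKM (log axis) of the 10 genes in each library, with doxycycline (orange-red, left) and without (blue, right); symbols stand for replicates and black bars for group means (n = 3). The chaperones HSPD1, HSPE1 and HSPA9 lie above 150 FPKM in every library, and IMMP2L is the gene whose groups stand furthest apart, at 3.92 to 9.51 FPKM with doxycycline and 13.8 to 21.9 FPKM without.

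**Figure D2:**
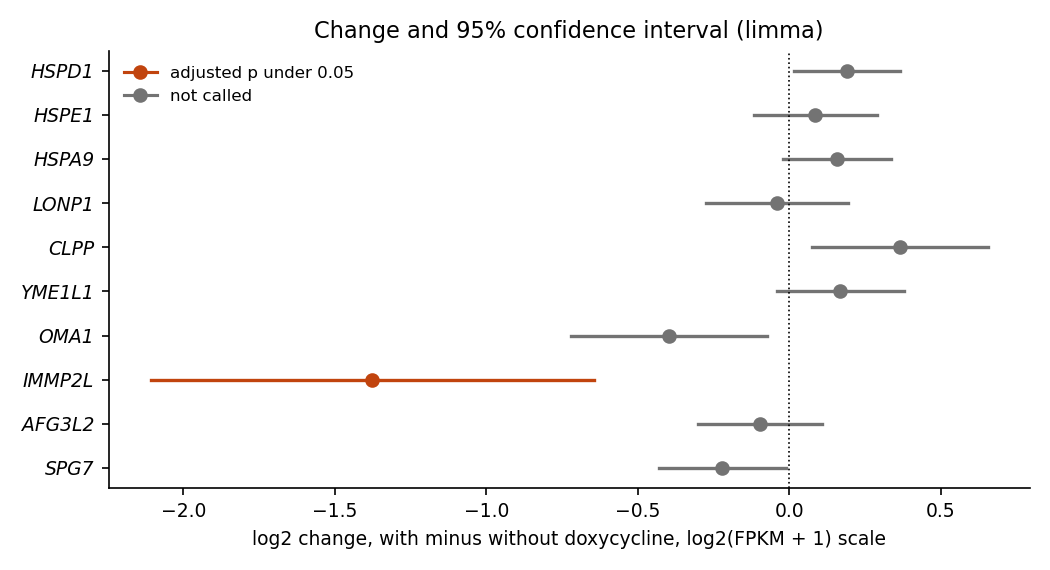
Log2 change with minus without doxycycline, on the log2(FPKM + 1) scale, with its 95% confidence interval from limma. IMMP2L (-1.38, interval -2.11 to -0.64) is the only one of the 10 with an adjusted p under 0.05.

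HSPD1 (ENSG00000144381.17, chromosome 2, 197486584 to 197516737, minus strand), the subunit of the chaperonin barrel, was at 631, 646 and 701 FPKM with doxycycline and at 549, 590 and 594 FPKM without it. Loci are those of the deposited table, on GRCh38. Every +Dox value was above every -Dox value, by a small margin. The mean was 659 ± 37.2 against 578 ± 25.2 FPKM (SD, n = 3 each), a log2 change of 0.19 (95% interval 0.02 to 0.36), and it did not pass the test (limma adjusted p = 0.147). Its lid HSPE1 (ENSG00000115541.11, chromosome 2, 197500140 to 197503449, plus strand) was at 540, 531 and 648 FPKM with doxycycline and at 543, 528 and 542 FPKM without it. Only +Dox replicate 3 stood above the -Dox range, and without that library the log2 change of HSPE1 was -0.01 in place of 0.09 (limma adjusted p = 0.946 and 0.581). The ratio of HSPD1 to HSPE1 mRNA was 1.17, 1.22 and 1.08 in +Dox cells and 1.01, 1.12 and 1.10 in -Dox cells, with overlapping groups (exact permutation p = 0.3, two-sided).

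Reads of both chaperonin genes can be shared with processed pseudogenes, of which the table lists 17 for HSPD1 and 26 for HSPE1. The HSPD1 copies together stood at 14.3% to 14.7% of the HSPD1 value with doxycycline and at 14.1% to 14.5% without it, and the HSPE1 copies at 30.1% to 34.9% and 29.02% to 35.9%. HSPD1P1 had values of 73.7, 76.4 and 79.9 FPKM with doxycycline and 63.3, 67.3 and 67.2 FPKM without it, a log2 change of 0.21 close to that of HSPD1 (limma adjusted p = 0.0995). The chaperonin values are therefore uncertain by what these copies hold. The read-through transcript HSPE1-MOB4, which starts in HSPE1, was at 4.60, 4.79 and 3.53 FPKM in +Dox cells and 1.98, 3.81 and 1.58 FPKM in -Dox cells (log2 0.66, limma adjusted p = 0.0851, or 0.0278 without -Dox replicate 2).

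HSPA9 (ENSG00000113013.15, chromosome 5, 138553756 to 138575416, minus strand), or mortalin, pulls precursors through the inner membrane and folds them in the matrix. It was at 184, 186 and 165 FPKM with doxycycline and at 167, 155 and 158 FPKM without it. The lowest +Dox library and the highest -Dox library overlapped, and the log2 change was 0.16 (95% interval -0.02 to 0.34, limma adjusted p = 0.231). Among its helpers, DNAJC15, a J-domain protein of the inner membrane import machinery, rose to 8.72, 9.81 and 11.1 FPKM in +Dox cells, against 5.59, 6.81 and 7.05 FPKM in -Dox cells (log2 0.54, SE 0.12, limma adjusted p = 0.0282). That call was lost without +Dox replicate 2 or 3 and without -Dox replicate 1 or 2, with adjusted p between 0.0655 and 0.0864. Of 9 tested co-chaperones and other chaperones of mitochondria DNAJC15 was the 1 that rose and 0 fell, and their median log2 change was 0.20. That is 11.1%, against 8.46% of all tested genes. In this list 3 were called higher after length and GC correction, which called 18.9% of all genes. With no filter, which called 53 of 32367 genes higher, 0 of the 9 were called higher. DNAJC15 then had a limma adjusted p of 0.117. TIMM44, the membrane anchor for HSPA9, rose to 35.9 ± 1.79 FPKM in +Dox cells, against 28.96 ± 1.41 FPKM in -Dox cells (SD, n = 3 each; log2 0.30, limma adjusted p = 0.0499). The TIMM44 call was lost in 11 of 14 alternatives. Leaving out any 1 of the 6 libraries gave a limma adjusted p between 0.0696 and 0.177. The call was also lost with equal library totals (0.0596), a pseudocount of 0.1 (0.0503) and no filter (0.12). It was lost too with neither trend nor robust estimation (0.0743) and with a replicate block (0.123).

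The matrix holds 2 soluble ATP-driven proteases, LONP1, which degrades oxidised and unassembled proteins, and CLPP, a serine peptidase fed by the unfoldase CLPX. LONP1 (ENSG00000196365.12, chromosome 19, 5691834 to 5720572, minus strand) was at 39.4, 44.8 and 49.5 FPKM in +Dox cells and 50.1, 45.7 and 41.7 FPKM in -Dox cells. Both groups covered nearly the same range, the log2 change was -0.04 (95% interval -0.28 to 0.19, limma adjusted p = 0.835), and its sign turned without +Dox replicate 1 (0.04) or -Dox replicate 1 (0.02). CLPP (ENSG00000125656.11, chromosome 19, 6361531 to 6370242, plus strand) was at 36.1, 45.3 and 54.1 FPKM with doxycycline and at 35.4, 33.9 and 33.9 FPKM without it. The -Dox libraries lay close together while the +Dox libraries ran from just above the -Dox range to well above it. Its mean was 45.2 ± 8.98 against 34.4 ± 0.878 FPKM (SD, n = 3 each), with a log2 change of 0.36 (95% interval 0.07 to 0.65) that did not pass the test (limma adjusted p = 0.105). Without +Dox replicate 1 the log2 change was 0.51 and passed (limma adjusted p = 0.033), and without +Dox replicate 3 it was 0.23 (0.196). CLPX was at 44.1, 41.7 and 40.0 FPKM with doxycycline and 31.7, 34.5 and 39.2 FPKM without it (log2 0.25, limma adjusted p = 0.118). Peptidase and unfoldase did not follow the same libraries, and their ratio, 0.819, 1.09 and 1.35 in +Dox cells and 1.12, 0.983 and 0.864 in -Dox cells, overlapped between groups (exact permutation p = 0.7, two-sided). The log2 difference of this ratio was 0.11, and -0.06 without +Dox replicate 3.

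On the inner membrane, the m-AAA protease is built from AFG3L2 and paraplegin (SPG7) and faces the matrix, where it degrades unassembled subunits and matures the ribosomal protein MRPL32. AFG3L2 (ENSG00000141385.10, chromosome 18, 12328944 to 12377227, minus strand) was at 22.7, 21.1 and 22.3 FPKM in +Dox cells and 23.4, 21.6 and 26.0 FPKM in -Dox cells. The groups overlapped (log2 -0.10, 95% interval -0.30 to 0.11, limma adjusted p = 0.526). AFG3L1P, a related copy of AFG3L2, was at 21.7 ± 1.35 FPKM in +Dox cells and 21.5 ± 1.41 FPKM in -Dox cells (SD, n = 3 each, limma adjusted p = 0.942). How far AFG3L2 and this copy share reads was not tested. SPG7 (ENSG00000197912.16, chromosome 16, 89490719 to 89557766, plus strand) was at 66.2, 64.3 and 53.7 FPKM in +Dox cells and 68.6, 73.6 and 72.4 FPKM in -Dox cells. All 3 +Dox values were below all -Dox values, with +Dox replicate 3 the lowest, but the log2 change of -0.22 (95% interval -0.43 to -0.01) did not pass the test (limma adjusted p = 0.157), and was -0.13 without that library (0.227). AFG3L2 stood at 0.343, 0.328 and 0.415 of the SPG7 level in +Dox cells and at 0.342, 0.294 and 0.359 in -Dox cells (exact permutation p = 0.5, two-sided). MRPL32, their substrate, was at 56.3 ± 5.86 FPKM in +Dox cells and 52.2 ± 1.54 FPKM in -Dox cells (SD, n = 3 each; limma adjusted p = 0.498).

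YME1L1, the i-AAA protease of the intermembrane space face, and OMA1, a metalloprotease activated when the membrane potential falls, both cut the fusion protein OPA1, at different sites. YME1L1 (ENSG00000136758.19, chromosome 10, 27110111 to 27155266, minus strand) was at 73.0, 71.6 and 61.0 FPKM in +Dox cells and 57.6, 59.3 and 65.4 FPKM in -Dox cells. Replicate 3 of each group lay inside the other group's range (log2 0.17, 95% interval -0.04 to 0.38, limma adjusted p = 0.277). OMA1 (ENSG00000162600.12, chromosome 1, 58415384 to 58546802, minus strand) was at 7.20, 8.89 and 9.42 FPKM in +Dox cells and 11.2, 9.59 and 14.0 FPKM in -Dox cells. It was lower in every +Dox library than in every -Dox library, by a log2 change of -0.40 (95% interval -0.72 to -0.07) that did not pass the test (limma adjusted p = 0.11). YME1L1 mRNA was 10.1, 8.05 and 6.47 times as abundant as OMA1 mRNA in +Dox cells and 5.17, 6.19 and 4.67 times in -Dox cells. This ratio did not overlap between groups (mean 8.22 ± 1.84 against 5.34 ± 0.773, SD, n = 3 each), and its exact permutation p of 0.1 (two-sided) was the smallest that 3 against 3 libraries allow, or 0.4 adjusted over the 4 ratios compared. OPA1 itself was at 36.1, 32.8 and 26.5 FPKM in +Dox cells and 32.1, 31.3 and 29.8 FPKM in -Dox cells (log2 0.02, limma adjusted p = 0.919), and DELE1, the OMA1 substrate that carries a stress signal to the cytosol, had a log2 change of 0.05 (0.815).

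**Figure D3:**
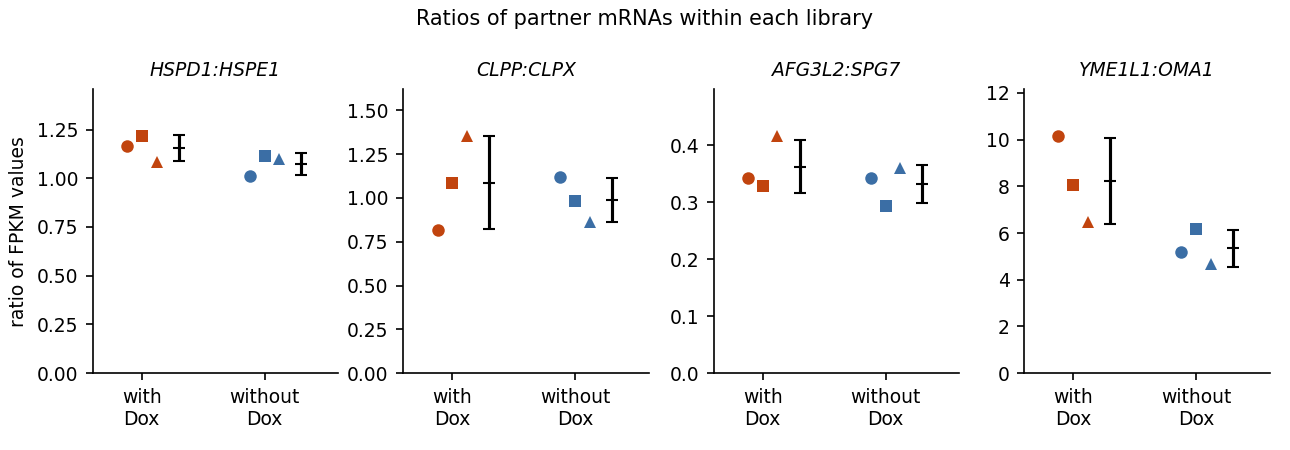
Ratios of FPKM values within each library for 4 gene pairs, with doxycycline (orange-red, left) and without (blue, right). Symbols stand for replicates, and black bars give mean ± SD (n = 3). YME1L1:OMA1 is the pair whose groups do not overlap, at 6.47 to 10.1 with doxycycline and 4.67 to 6.19 without.

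IMMP2L encodes a catalytic subunit of the inner membrane peptidase, which removes sorting signals from proteins bound for the intermembrane space. Its locus (ENSG00000184903.10) covers chromosome 7 from 110662644 to 111562517 on the minus strand. It fell to 3.92, 9.51 and 4.69 FPKM in +Dox cells, against 14.2, 21.9 and 13.8 FPKM in -Dox cells. Replicate 2 was the highest library in each group, and the groups did not overlap. The mean was 6.04 ± 3.03 against 16.6 ± 4.54 FPKM (SD, n = 3 each), a log2 change of -1.38 (SE 0.31) with a limma adjusted p of 0.0427. The spread within groups was the widest of the 10 genes, with a highest value 2.43 times the lowest in +Dox cells and 1.59 times in -Dox cells. The call held without +Dox replicate 2 (adjusted p = 0.00577) and was lost when any of the other 5 libraries was left out, with adjusted p between 0.0776 and 0.119 and log2 changes between -1.49 and -1.16. It was also lost with no filter on low values (0.122). GENCODE 29, which holds another version of this gene's model, lists 10 IMMP2L transcripts of 243 to 1522 bases, so the fragments behind these values depend on which was sequenced: between 106 and 269 in +Dox libraries and between 283 and 566 in -Dox libraries if the longest, or 17 to 43 and 45 to 90 if the shortest. Transcript-level values were not used here, so fewer transcripts and a shift between short and long transcripts cannot be told apart.

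IMMP1L, GPD2 and AIFM1 were looked at beside IMMP2L for their roles and did not pass the test. IMMP1L, its fellow catalytic subunit, was at 16.8, 13.4 and 20.2 FPKM in +Dox cells and 14.4, 11.1 and 12.8 FPKM in -Dox cells, a log2 change of 0.36 with overlapping groups (limma adjusted p = 0.142). GPD2, the mitochondrial glycerol phosphate dehydrogenase that the peptidase matures, had a log2 change of 0.05 (0.859). AIFM1, a flavoprotein of the intermembrane space, was at 21.9 ± 1.17 FPKM in +Dox cells and 18.1 ± 0.308 FPKM in -Dox cells (SD, n = 3 each; log2 0.26, limma adjusted p = 0.0744).

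**Figure D4:**
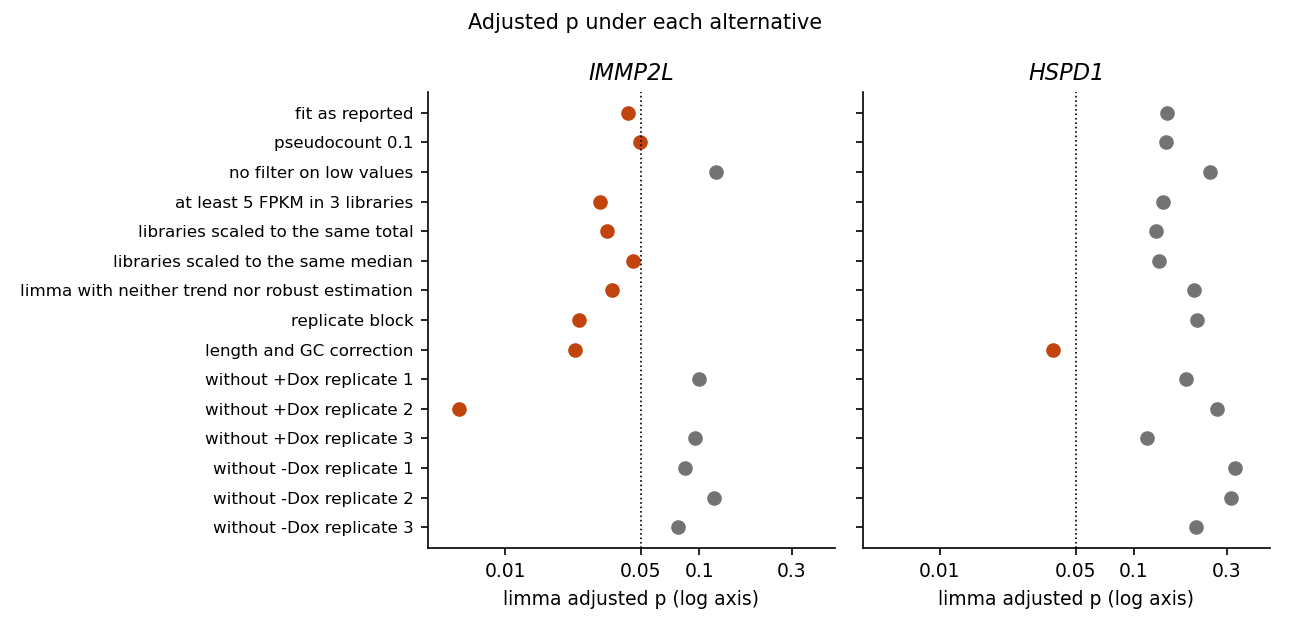
Limma adjusted p (log axis) of IMMP2L and HSPD1 under the fit as reported and 14 alternatives; the dotted line is 0.05, and orange-red points are below it. IMMP2L lies above the line when any library other than +Dox replicate 2 is left out and with no filter, while HSPD1 is below it only after correction for length and GC content (0.0383).

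Further proteases, their scaffolds and their substrates were taken from lists set by role. Of 12 further proteases and peptidases, counting the unfoldase CLPX, 0 were called by limma in either direction, against 8.46% of all tested genes. Their median log2 change was -0.08. An unadjusted limma p under 0.05 was reached by 3 of the 12, against 27.9% of all tested genes. After length and GC correction, which called 18.9% of all genes, 1 of the 12 was called higher. It was the unfoldase CLPX (limma adjusted p = 0.0273). The smallest p-values belonged to NLN, a peptidase that cuts small peptides (23.1 ± 0.648 FPKM in +Dox and 27.5 ± 2.08 FPKM in -Dox cells, limma adjusted p = 0.109), and CLPX. Of 16 scaffolds, partners and substrates 1 rose and 1 fell (12.5%, against 8.46% of all tested genes), with a median of 0.12. The counts were 6 higher and 1 lower after length and GC correction, which called 18.9% of all genes. They were 0 and 0 with no filter on low values, which called 53 higher and 100 lower of 32367 genes. SMDT1, the calcium uniporter subunit EMRE that the m-AAA protease degrades when unassembled, rose to 9.80, 14.7 and 14.0 FPKM in +Dox cells, against 8.37, 7.76 and 6.51 FPKM in -Dox cells (log2 0.68, limma adjusted p = 0.0285). STARD7, a lipid transfer protein cut by the rhomboid protease PARL, fell to 42.1, 44.2 and 48.0 FPKM in +Dox cells, against 57.4, 60.9 and 60.9 FPKM in -Dox cells (log2 -0.41, limma adjusted p = 0.02). The SMDT1 call was lost without any library other than +Dox replicate 1 (adjusted p between 0.0578 and 0.0877), and the STARD7 call without +Dox replicate 1 or 2 and -Dox replicate 2 or 3 (between 0.0509 and 0.0955).

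Of 22 protein import genes 2 rose, TIMM44 and the intermembrane space chaperone TIMM10 (40.2 ± 6.03 FPKM in +Dox and 27.9 ± 3.93 FPKM in -Dox cells, log2 0.51, limma adjusted p = 0.0412), and 0 fell, with a median of 0.08. That is 9.09%, against 8.46% of all tested genes. TIMM10 kept its call without -Dox replicate 1 and lost it when any other library was left out (adjusted p between 0.0532 and 0.145). The counts of import genes were 6 higher and 1 lower after length and GC correction, which called 18.9% of all genes. The counts were 2 and 2 with equal library totals, which called 458 higher and 890 lower of 14475 genes. Without +Dox replicate 3 they were 0 and 2, against 412 and 588 of 14475 genes. With no filter they were 0 and 0, against 53 higher and 100 lower of 32367 genes. With neither trend nor robust estimation in limma they were also 0 and 0, against 354 and 605 of 14475 genes. The median log2 change of the 13 mRNAs encoded in mitochondrial DNA, whose translation doxycycline can slow, was 0.08. Of these, 2 rose and 0 fell (15.4%, against 8.46% of all tested genes). They were MT-ND1 (2677 ± 276 FPKM in +Dox and 2056 ± 22.5 FPKM in -Dox cells, log2 0.38, limma adjusted p = 0.031) and MT-ND2 (3512 ± 353 and 2803 ± 36.1 FPKM, log2 0.32, 0.0485), both encoding complex I subunits. MT-ND1 lost its call without +Dox replicate 2 or any -Dox library (adjusted p between 0.0808 and 0.128), and MT-ND2 without any library other than +Dox replicate 3 (between 0.0728 and 0.179). Both calls were also lost with neither trend nor robust estimation (0.0595 for MT-ND1 and 0.0834 for MT-ND2) and with no filter (0.108 and 0.135). With equal library totals, which called 890 of 14475 genes lower, 1 of the 13 was called lower.

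Transcription factors tied to the mitochondrial unfolded protein response were the list with the most calls. Of 5 tested, DDIT3 (CHOP), CEBPB and ATF4 rose and 0 fell, with a median of 0.33. That is 60%, against 8.46% of all tested genes, in a short list chosen with earlier results of these data known. DDIT3 rose to 30.8, 33.5 and 42.0 FPKM in +Dox cells, against 16.5, 16.5 and 16.5 FPKM in -Dox cells (log2 1.05, limma adjusted p = 0.00228), and kept its call without each library (adjusted p at most 0.0165). CEBPB, the dimer partner of CHOP, rose by 0.47 on the log2 scale (limma adjusted p = 0.0292) and ATF4 by 0.33 (0.0479). CEBPB lost its call without +Dox replicate 2 or 3 or -Dox replicate 2 or 3 (adjusted p between 0.0548 and 0.116), and ATF4 without any 1 of the 6 libraries (between 0.0559 and 0.187). With no filter both lost their calls (0.119 for CEBPB and 0.138 for ATF4), and ATF4 also with neither trend nor robust estimation (0.0793). After length and GC correction 4 of the 5 were called higher, in a setting that called 18.9% of all genes. ATF5, the mammalian factor likened to the worm regulator of this response, was at 9.84, 10.4 and 13.8 FPKM in +Dox cells and 14.3, 14.8 and 12.3 FPKM in -Dox cells (log2 -0.27, limma adjusted p = 0.208), and HSF1, the heat shock factor, had a log2 change of 0.16 (0.336). Whether the factors and the chaperone and protease genes differed in their response was not tested.

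**Figure D5:**
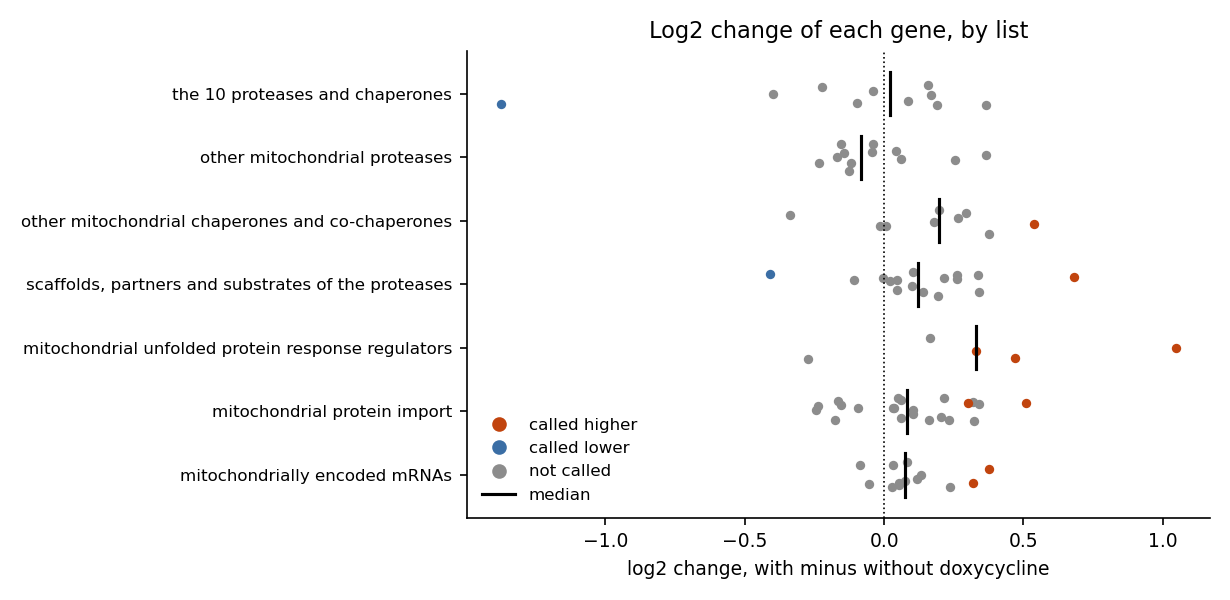
Log2 change (with minus without doxycycline) of every tested gene in 7 lists, 1 point per gene, with called genes coloured and the list median as a black bar. The 10 proteases and chaperones centre on 0.02 with IMMP2L alone at the far left, and the regulators, with DDIT3 at 1.05, centre on 0.33.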

How the data were processed

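One deposited table held a value per gene for each of the 6 libraries, and 0 value columns were left unmapped. Its header names no unit. The values were read as the authors' FPKM, which is inferred from their size. Per the submitters' processing notes, Bowtie, BWA, STAR, Cufflinks, RSEM and kallisto were used with hg19, without versions or roles, whereas 39321 of the 39331 identifiers found in GENCODE 29 carried its GRCh38 locus. GRCh38 coordinates are therefore given, counted from 1. The sources used here give neither RNA selection nor strandedness, so reads of overlapping genes (LONP1 with RPL36, YME1L1 with MASTL, AFG3L2 with TUBB6, and HSPD1 with HSPE1, HSPE1-MOB4 and MOB4) could not be separated.

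Genes at 1 FPKM or more in at least 3 libraries (14475) were tested with limma 3.58.1 in R 4.3.3 on log2(FPKM + 1), with trended, robust variance estimates, two-sided, with Benjamini-Hochberg adjustment over all tested genes and a threshold of 0.05. Fold changes on this scale understate those of low genes. The 4 ratios were compared by exact permutation. Depth was estimated from the value steps of 3640 single-exon genes longer than 1000 bases. The limma step was checked on 5 simulated data sets with normal noise, in each of which 200 of 14475 genes were changed by known folds. It recovered 5.26% of 1.25-fold, 49% of 1.5-fold, 84.1% of 2-fold and 99.6% of 4-fold changes. The real fit called 1225 genes, so these rates may differ for the real libraries. A gene that was not called may thus still have changed by a small amount.

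The genes and lists were chosen with earlier results of these data known. The genes named were CAPG, the 10 genes, and from each list up to 4 called genes with the smallest p-values, or the 2 smallest where 0 were called. MRPL32, OPA1, DELE1, IMMP1L, GPD2, AIFM1, ATF5 and HSF1 were added for their roles, and the copies and overlapping genes for shared reads, after their values were seen. Alternatives were another pseudocount, other filters, scalings and variance models, a replicate block, a length and GC correction, and leaving out each library.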

Additional observations from a re-analysis of the deposited data

How the results depend on the processing

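IMMP2L kept its direction in all 14 alternatives and its call in 8, and its limma adjusted p ran between 0.00577 and 0.122. The counts of called genes depended on the settings more than its direction did. Over all genes, limma called 53 higher and 100 lower with no filter on low values, 354 and 605 with neither trend nor robust estimation, and 1509 and 1216 after length and GC correction, against 534 and 691 as reported. The split was 458 higher and 890 lower with equal library totals, and 687 and 642 with equal medians. Leaving out a library gave 76 to 412 higher and 147 to 588 lower calls, with the fewest without -Dox replicate 2. Of the 10 genes, 1 was called higher (HSPD1) and 1 lower (IMMP2L) after length and GC correction, 20% against 18.9% of all genes. With no filter 0 were called lower, and leaving out a library gave 0 to 1 higher and 0 to 1 lower. The cause of these shifts was not tested.

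Signs turned in uncalled values. Leaving out a library put HSPE1 between -0.0056 (without +Dox replicate 3) and 0.1373, and LONP1 between -0.1181 and 0.0422, being at 0.0422 without +Dox replicate 1 and 0.0237 without -Dox replicate 1. With equal totals HSPE1P2 was at -0.0089 and AFG3L1P at -0.0388, and HSPE1P2 was at -0.0316 after length and GC correction. Leaving out a library put HSPE1P2 between -0.1014 and 0.1656, AFG3L1P between -0.0209 and 0.0634, and the log2 difference of CLPP:CLPX between -0.0591 and 0.302. HSPE1P2 was negative without +Dox replicate 3 (-0.1014), -Dox replicate 1 (-0.0263) and -Dox replicate 3 (-0.0045), and AFG3L1P without +Dox replicates 1 (-0.0043) and 2 (-0.0194) and -Dox replicates 1 (-0.0039) and 3 (-0.0209).

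The labels number the libraries 1 to 3 in both groups without saying that a number marks a shared culture or day. Deviations of same-numbered libraries correlated at -0.043, 0.0094 and -0.023 across genes, and no library correlated best with its own number, so the numbers were not taken as pairs. With the replicate block limma called 69 genes higher and 142 lower. IMMP2L (limma adjusted p = 0.0241), DDIT3 (0.0284) and CAPG (0.00231) kept their calls. The block took the calls of DNAJC15, STARD7, SMDT1, CEBPB, TIMM10, MT-ND1, MT-ND2, ATF4 and TIMM44, at limma adjusted p between 0.0569 and 0.123. Depth limits the low genes most, and -Dox replicate 3 was the shallowest library.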
